A study of Mus musculus with 16 samples.

Results

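The comparison set Gr1+ monocytes of mouse bone marrow against MDP, the macrophage and dendritic cell progenitors of the same tissue, on microRNA (miRNA) arrays. The differences come from 4 of the 16 arrays of the study, chosen by their titles: 2 of Gr1+ monocytes and 2 of MDP. The spread behind the tests was estimated from all 16 arrays. Gr1+ monocytes had been enriched on Ficoll and sorted as CD11b+ CD115+ Gr1+ cells, in pools of 5 mice. MDP had been enriched with CD135 beads and sorted as CD135+ CD117+ CD115+ cells that lacked CD11b, Gr1 and other lineage markers, in pools of 15 mice. Both populations came from femur and tibia of untreated female C57Bl/6 mice aged 6 weeks, with no culture step. The first replicates had been run on one version of the array (array design 1) and the second replicates on another (array design 2). The 2 marrow samples of plasmacytoid dendritic cells (PDC; B220+ CD11c int SiglecH+ CD317+, pools of 5 mice) served to show which differences were shared with another mature marrow cell.

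MDP are progenitors of monocytes, macrophages and dendritic cells, and they carry the receptors CD117 (Kit), CD115 (Csf1r) and CD135 (Flt3). Gr1+ monocytes are their CD115+ descendants and the marrow reserve of inflammatory monocytes. A miRNA is a short RNA that lowers the output of messenger RNAs which pair with its seed, bases 2 to 8, so miRNAs with 1 seed share many targets, and neighbouring hairpins are often cut from 1 primary transcript.

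The mature sequences that carry the comparison are printed here from RefSeq (GRCm38.p6), 5′ to 3′, with the seed in capitals. Names follow the arrays. Of the 175 miRNAs tested, 152 were matched to a RefSeq sequence, and 59 of the 66 called ones. The first set holds the miRNA with the largest rise, the myeloid miR-223, and the miR-15 and miR-16 family, which has 1 seed.
miR-22: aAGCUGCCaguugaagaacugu
miR-223: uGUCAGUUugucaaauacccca
miR-15a: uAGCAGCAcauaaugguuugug
miR-16: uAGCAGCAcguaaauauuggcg
miR-15b: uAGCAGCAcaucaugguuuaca
miR-195: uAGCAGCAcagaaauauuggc

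The next set holds the called miRNAs that were detected on both MDP arrays and on neither Gr1+ monocyte array. No seed is shared among them.
miR-126-3p: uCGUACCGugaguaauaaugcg
miR-130a: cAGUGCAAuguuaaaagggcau
miR-196b: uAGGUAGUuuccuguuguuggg
miR-155: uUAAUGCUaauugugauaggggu

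A further set shows miR-17, miR-20a and miR-20b, which fell, beside miR-93 and miR-106b, which share their seed and were not called, and then miR-92a, which fell, beside miR-25, which shares its seed and was not called.
miR-17: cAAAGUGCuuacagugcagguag
miR-20a: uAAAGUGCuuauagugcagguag
miR-20b: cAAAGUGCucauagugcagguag
miR-93: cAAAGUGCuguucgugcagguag
miR-106b: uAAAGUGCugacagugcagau
miR-92a: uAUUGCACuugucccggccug
miR-25: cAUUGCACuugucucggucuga

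The last set shows miR-27a and miR-27b, which differ by 1 base outside the seed and were called in opposite directions, and the 4 members of the miR-181 family, which all fell.
miR-27a: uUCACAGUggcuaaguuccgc
miR-27b: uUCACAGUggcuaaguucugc
miR-181a: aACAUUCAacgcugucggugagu
miR-181b: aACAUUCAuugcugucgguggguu
miR-181c: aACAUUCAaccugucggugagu
miR-181d: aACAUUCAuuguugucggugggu

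Each value is a log2 signal after division by the array's own 75th percentile, and a miRNA is compared only with itself, since probes differ in brightness. With 2 arrays per population, precision is limited. Dim signals were set to a floor, -5.32 on array design 1 and -5.78 on array design 2. Floored signals have no spread, which can make an SE or adjusted p too small. Of the 604 miRNAs on both designs, 123 and 142 were detected on the Gr1+ monocyte arrays and 128 and 116 on the MDP arrays. The median absolute difference between the replicates was 0.32 for Gr1+ monocytes and 0.37 for MDP, a spread that includes the offset between the designs. In such pools, fewer cells of a type and less of an RNA per cell cannot be told apart.

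The labelled cell types were set against lists of markers, which were chosen with earlier results of these data known. The myeloid list, which holds miR-223, both arms of miR-142, miR-21, miR-22 and 4 others, had all 9 members detected on both Gr1+ monocyte arrays and 6 on both MDP arrays. Its summed relative signal was 34.5 and 26.8 in Gr1+ monocytes, against 12.5 and 14.4 in MDP. These sums are on a linear scale, so bright probes weigh most. Most of the myeloid sum on each array is miR-223. Its difference was 0.00 after quantile normalization, which gives miRNAs of equal rank equal values within a design. The stem and early progenitor list had 3 of 13 members detected on each Gr1+ monocyte array and 6 on each MDP array, with sums of 0.31 and 0.286 in Gr1+ monocytes and 0.874 and 1.04 in MDP. Of the 3 erythroid miRNAs, miR-144 and miR-486 were detected on none of the 4 arrays and miR-451 on 1 Gr1+ monocyte array, with sums of 0.0292 and 0.0481 in Gr1+ monocytes against 0.0246 and 0.0288 in MDP. None of the 15 stromal, muscle and epithelial miRNAs was detected on any of the 4 arrays (sums of 0.0328 and 0.0427 in Gr1+ monocytes, 0.0074 and 0.0227 in MDP). The lymphocyte list had 5 of 6 members detected on each array, with sums of 0.964 and 0.897 in Gr1+ monocytes and 0.994 and 1.12 in MDP. miR-155 was the missing one in Gr1+ monocytes and miR-150 in MDP. The part of other cells in the results was not tested.

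Gr1+ monocytes differed from MDP in 66 of 175 tested miRNAs (37.7 percent; limma with Benjamini-Hochberg adjustment, called where the adjusted p was under 0.05), of which 35 were higher (20 percent) and 31 lower (17.7 percent). These calls used the spread of all 16 arrays, and with only the 4 arrays in the fit 0 miRNAs were called. Higher were the myeloid miR-22, miR-223 and miR-21 and 4 of 5 tested members of the miR-15 and miR-16 family. Lower were miR-126-3p, miR-130a, miR-196b and miR-155, 7 of 10 tested members of the miR-17 clusters, the miR-181 family and the pair miR-221 and miR-222. The median difference of all tested miRNAs was 0.00. All 66 had the same sign in both replicate numbers. Values of the 2 populations did not overlap for 33 of the 35 higher and for all 31 lower miRNAs, against 85 of all 175 (48.6 percent). The overlapping ones were miR-142-3p and miR-423-5p. The difference was more positive in replicate 1 than in replicate 2 for 27 of the 31 lower miRNAs and for 25 of the 35 higher ones. Most falls were thus larger in replicate 2 and most rises larger in replicate 1, a shift in the same direction. The cause of the shift was not tested, and the count was not taken over all 175 miRNAs.

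**Figure D1:**
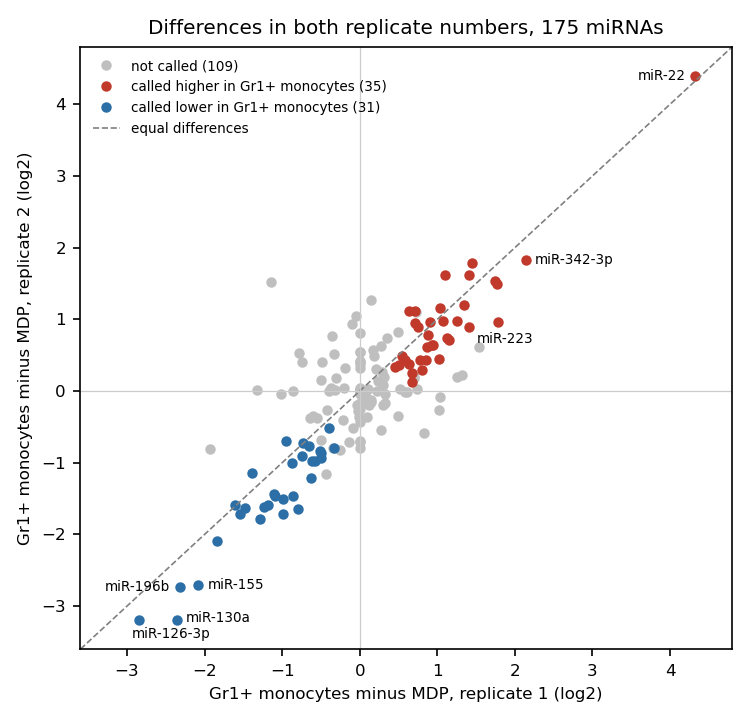
Each point is 1 of 175 miRNAs, with the log2 difference of Gr1+ monocytes minus MDP in replicate 1 on the horizontal axis and in replicate 2 on the vertical axis. The 35 miRNAs called higher lie at the upper right and the 31 called lower at the lower left, and most of the lower ones lie below the dashed line of equal differences.

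The calls depended on how background and dim signals were handled. The normexp correction was applied to the unprocessed signals, with an offset of 50 and no floor. The median of all tested miRNAs was then 0.73 instead of 0.00, and 11 miRNAs were called. These steps changed together, and the part of each was not tested. The 11 were miR-22, miR-342-3p, miR-15a, miR-16, miR-15b, miR-26b and miR-223 as higher and miR-92a, miR-20a, miR-20b and miR-19b as lower. All of them were called in the same direction with the processed signals. Of the 31 lower miRNAs, 14 had a difference above 0 with normexp, yet all 31 lay below its median, and 24 of the 35 higher ones lay above it. Scaled over all miRNAs, 53 miRNAs were called, and after quantile normalization 65 were. Under both of these scalings 48 of the 66 calls were kept, 21 higher and 27 lower.

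**Figure D2:**
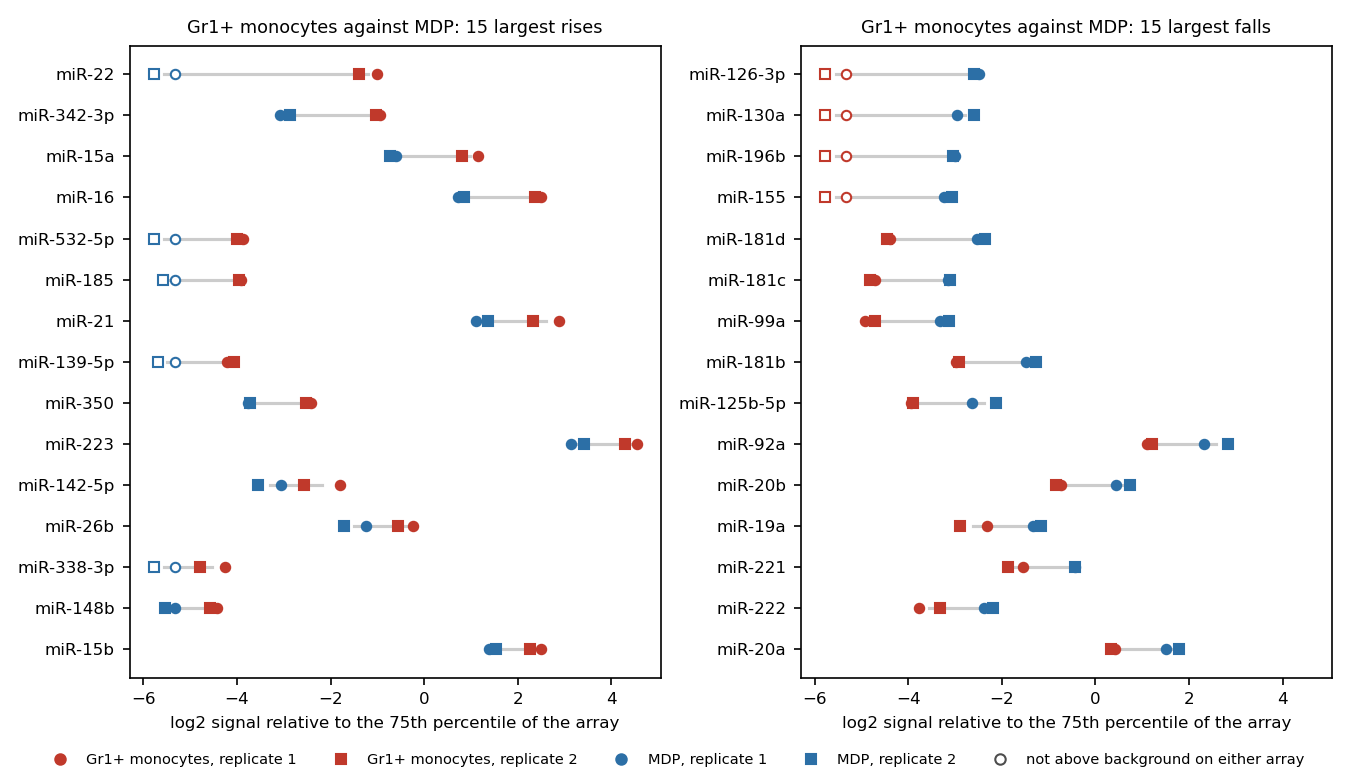
Log2 relative signals on each of the 4 arrays, for the 15 miRNAs with the largest rise (left) and the 15 with the largest fall (right) among those called. Red marks are Gr1+ monocytes and blue marks MDP, circles replicate 1 and squares replicate 2, open marks are populations not above background on either array, and grey lines join the means; the 2 colours do not overlap in any row. With normexp the differences of miR-155, miR-196b, miR-181c, miR-181d, miR-99a, miR-125b-5p and miR-222 were above 0.

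Among the myeloid miRNAs, miR-22, which rises during myeloid differentiation, had the largest difference. Its values were -1.0 and -1.39 in Gr1+ monocytes, against the floor of -5.32 and -5.78 in MDP, where it was not above background. Both Gr1+ monocyte arrays lay far above both MDP arrays. miR-22 was at least 11.3-fold higher in Gr1+ monocytes (log2 difference 4.36 ± 0.21 SE, limma adjusted p = 2.58e-06). Its probes lie at chr11:75277278-75277295 (mm9, plus strand). Its difference stayed called under every alternative that used all populations.

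miR-223, a miRNA of the myeloid lineage that restrains granulocyte production in mice, had values of 4.54 and 4.30 in Gr1+ monocytes, against 3.13 and 3.41 in MDP. The populations did not overlap, and MDP already carried a clear signal. It was 2.22-fold higher in Gr1+ monocytes (1.15 ± 0.20, limma adjusted p = 0.00142). After quantile normalization its difference was 0.00. That method gives miRNAs of equal rank the same value on the arrays of a design, so it cannot show a difference at equal rank. miR-21, a miRNA abundant in mature myeloid cells, had 2.88 and 2.33 in Gr1+ monocytes and 1.10 and 1.36 in MDP. It was 2.59-fold higher with a wide error (1.37 ± 0.38, limma adjusted p = 0.0197), and this call ended without Gr1+ monocyte replicate 1 (1.15), without MDP replicate 1 (1.13) and after quantile normalization.

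Both arms of miR-142, a hairpin of blood cells in general, were called higher. miR-142-5p had -1.80 and -2.56 in Gr1+ monocytes and -3.05 and -3.54 in MDP (1.12 ± 0.17, limma adjusted p = 0.000887). miR-142-3p had 1.5 and 0.42 in Gr1+ monocytes and 0.47 and -0.03 in MDP. The ranges of miR-142-3p overlapped across the array designs, and within each design Gr1+ monocytes were higher (0.74 ± 0.19, limma adjusted p = 0.012). The call of miR-142-3p ended without Gr1+ monocyte replicate 1 (0.63) or MDP replicate 1 (0.52).

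Of the other members of the myeloid list, miR-139-5p was at least 1.46-fold higher (1.36 ± 0.39, limma adjusted p = 0.0219) and miR-338-3p at least 1.12-fold higher (1.02 ± 0.07, limma adjusted p = 8.72e-06), both not above background in MDP. The call of miR-139-5p ended without any 1 of the 4 arrays, at 1.18 to 1.54. miR-146a and miR-146b, which dampen inflammatory signalling and share a seed, differed by 0.07 ± 0.31 and 0.44 ± 0.17 and were not called. In all, 7 of 9 tested members were higher and 0 lower, which is 77.8 percent called, against 37.7 percent of all tested miRNAs. The list's median difference was 1.12, against 0.00 over all tested miRNAs. The count was 4 of 9 without Gr1+ monocyte replicate 1, 4 of 9 without MDP replicate 1 and 2 of 9 with normexp (median 0.94 against 0.73). The list was chosen with earlier results of these data known, so its count is a description.

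The miR-15 and miR-16 family, whose members repress cell-cycle genes and Bcl2, had 5 tested members, 4 of them higher and 0 lower, with a median difference of 0.93. That is 80 percent called, against 37.7 percent of all tested miRNAs. miR-16 had 2.50 and 2.36 in Gr1+ monocytes, against 0.72 and 0.86 in MDP. Both Gr1+ monocyte values stood well above both MDP values, a 3.11-fold difference (1.64 ± 0.11, limma adjusted p = 8.72e-06). miR-15a, whose hairpin neighbours 1 of the 2 miR-16 hairpins, had 1.15 and 0.81 in Gr1+ monocytes and -0.60 and -0.73 in MDP, a 3.13-fold difference (1.64 ± 0.11, limma adjusted p = 8.72e-06).

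miR-15b, the neighbour of the other miR-16 hairpin, had 2.50 and 2.26 in Gr1+ monocytes and 1.38 and 1.53 in MDP. Its rise of 0.93 ± 0.11 (limma adjusted p = 0.000244) was smaller than that of miR-16, while the populations still did not overlap. On mm9 the probes of miR-15a lie at chr14:62250879-62250899 and those of miR-15b at chr3:68813700-68813718, and those of miR-16 map beside both, at chr14:62250736-62250753 and chr3:68813844-68813861. The array cannot tell the 2 miR-16 hairpins apart. miR-195, which has the same seed, was called higher (limma adjusted p = 0.00286) but was not above background in MDP, so that the size of its difference rests on the floor. miR-322, the fifth member, differed by 0.19 ± 0.14 and was not called. The family's median was 0.90 when scaled over all miRNAs, 0.88 after quantile normalization and 0.98 with normexp, with 4, 4 and 3 members called.

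Rises were also called outside the myeloid list and the miR-15 and miR-16 family. miR-342-3p, encoded in an intron of Evl and known from lymphoid cells, had -0.94 and -1.03 in Gr1+ monocytes and -3.08 and -2.86 in MDP. It was 3.97-fold higher with close replicates (1.99 ± 0.29, limma adjusted p = 0.000674), and it was the one member of the lymphocyte list that rose, while miR-155, miR-181a and miR-181b of that list fell. miR-350 had -2.42 and -2.52 in Gr1+ monocytes and -3.77 and -3.72 in MDP (1.27 ± 0.11, limma adjusted p = 2.89e-05).

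miR-26a and miR-26b, which share a seed and target Ezh2, both rose, by 0.93 ± 0.16 and 1.09 ± 0.15. miR-103 and miR-107, which differ by 1 base and act on metabolic genes, rose by 0.50 ± 0.10 and 0.44 ± 0.13, and neither passed after quantile normalization. Both arms of miR-340 (0.83 ± 0.19 for -5p and 0.64 ± 0.13 for -3p) and both of miR-140 (0.60 ± 0.14 and, for miR-140*, 0.55 ± 0.15) rose. Smaller rises with non-overlapping values were those of miR-652 (0.79 ± 0.15), miR-7a (0.75 ± 0.12), miR-30b (0.51 ± 0.12) and miR-361 (0.40 ± 0.14), and miR-423-5p (0.46 ± 0.13) overlapped between the populations. Among these, the calls of miR-107 (0.38), miR-140 (0.48), miR-140* (0.38), miR-30b (0.43), miR-361 (0.21) and miR-423-5p (0.37) ended without Gr1+ monocyte replicate 1. Without MDP replicate 1 those of miR-107 (0.42), miR-140* (0.42), miR-340-5p (0.75), miR-361 (0.27) and miR-423-5p (0.30) ended, and without MDP replicate 2 that of miR-107 (0.46).

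Among miRNAs not above background in MDP, miR-532-5p had -3.87 and -3.99 in Gr1+ monocytes and was at least 1.69-fold higher (1.62 ± 0.24, limma adjusted p = 0.000674). miR-185 had -3.91 and -3.96 in Gr1+ monocytes and was likewise at least 1.69-fold higher (1.51 ± 0.20, limma adjusted p = 0.000377). In all, 8 of the 35 higher miRNAs were detected on both Gr1+ monocyte arrays and on neither MDP array, the others of the 8 being miR-22, miR-139-5p, miR-338-3p, miR-195, miR-210 and miR-362-3p. For miR-195, miR-210 and miR-362-3p no minimum fold above 1 could be given, so that their fitted differences rest on the floor. The miR-532 cluster of chromosome X had 2 of 7 tested members higher, miR-532-5p and miR-362-3p, and 0 lower. That is 28.6 percent called, against 37.7 percent of all tested miRNAs. The call of miR-362-3p (0.83 ± 0.28, limma adjusted p = 0.0456) ended without any 1 of the 4 arrays, at 0.71 to 0.96.

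Of the 13 members of the stem and early progenitor list 7 were tested, and 5 of these 7 were lower and 0 higher. That is 71.4 percent called, against 37.7 percent of all tested miRNAs, in a list chosen with earlier results of these data known. The median difference was -1.60. With normexp none was called, and the median was 0.08 against 0.73 over all miRNAs. The count was 5 of 7 without each of the 4 arrays and under the other scalings. miR-126-3p, which keeps blood stem cells quiescent, lay at the floor in Gr1+ monocytes, against -2.48 and -2.59 in MDP. It was at least 5.84-fold lower in Gr1+ monocytes (-3.01 ± 0.22, limma adjusted p = 1.49e-05), and its probes lie at chr2:26446926-26446943 (mm9).

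miR-130a, abundant in blood progenitors, was at the floor in Gr1+ monocytes, against -2.96 and -2.60 in MDP, at least 4.93-fold lower (-2.77 ± 0.33, limma adjusted p = 0.000241). Its relative miR-130b, of the same seed and 2 bases apart, was still above background in Gr1+ monocytes (-2.33 and -2.56), against -1.34 and -1.05 in MDP (-1.25 ± 0.14, limma adjusted p = 0.000191). miR-301a of that seed was not called (0.47 ± 0.24). miR-196b, encoded in the Hoxa cluster, was at the floor in Gr1+ monocytes, against -3.0 and -3.04 in MDP, and at least 4.18-fold lower (-2.53 ± 0.21, limma adjusted p = 2.89e-05). With normexp the difference of miR-196b was 0.08 and not called.

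miR-99a had -4.93 and -4.72 in Gr1+ monocytes and -3.33 and -3.12 in MDP (-1.60 ± 0.21, limma adjusted p = 0.000377). miR-125b-5p, which expands myeloid progenitors when raised in mice, had -3.93 and -3.90 in Gr1+ monocytes and -2.64 and -2.12 in MDP (-1.53 ± 0.28, limma adjusted p = 0.00215). The values of both miRNAs did not overlap, but with normexp their differences were 0.33 and 0.05, and with outlier spots kept that of miR-125b-5p was 1.03 and not called. Of the other 2 tested members, miR-10a had -2.58 and -2.85 in Gr1+ monocytes and -2.85 and -2.31 in MDP, which overlapped, and let-7e was not above background in either population.

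miR-155, induced by inflammatory stimuli, was not above background in Gr1+ monocytes and had -3.24 and -3.07 in MDP. It was at least 3.79-fold lower in Gr1+ monocytes (-2.39 ± 0.36, limma adjusted p = 0.00079), with 0.19 and no call under normexp. miR-34a, a target of p53, had -4.90 and -5.13 in Gr1+ monocytes and -4.03 and -4.12 in MDP (-0.94 ± 0.28, limma adjusted p = 0.0269). That call ended without any 1 of the 4 arrays, at -0.89 to -0.99, after both other scalings and with normexp. The remaining lower miRNAs were miR-345-5p (-0.82 ± 0.12), miR-101b (-0.73 ± 0.21), miR-709 (-0.56 ± 0.19) and miR-374 (-0.45 ± 0.13), and the calls of miR-101b (-0.70 to -0.75) and miR-374 (-0.39 to -0.51) ended without any 1 of the 4 arrays. The call of miR-709 ended without Gr1+ monocyte replicate 1 (-0.63) or 2 (-0.48) and without MDP replicate 2 (-0.37).

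The miR-17 clusters promote proliferation of progenitors. The miR-17 to miR-92a cluster on chromosome 14 had 7 of 8 tested mature miRNAs lower, against 17.7 percent of all tested miRNAs. Among these were 6 main strands that fell by 0.92 to 1.42. Of the 10 tested members of the miR-17 clusters, 70 percent were called, against 37.7 percent of all tested miRNAs. With normexp 4 of the 10 were lower, with a median of -0.35 against 0.73 over all miRNAs. miR-92a had 1.10 and 1.21 in Gr1+ monocytes, against 2.32 and 2.83 in MDP. Both Gr1+ monocyte values were below both MDP values, a 2.68-fold fall (-1.42 ± 0.11, limma adjusted p = 2.39e-05). miR-20a had 0.41 and 0.34 in Gr1+ monocytes and 1.51 and 1.79 in MDP (-1.27 ± 0.12, limma adjusted p = 6.38e-05).

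The other strands of that cluster moved by similar amounts. miR-19a differed by -1.35 ± 0.21, miR-19b by -1.21 ± 0.22, miR-17 by -1.16 ± 0.17 and miR-18a by -0.92 ± 0.19, a call that miR-18a lost after quantile normalization. The passenger strand miR-17* fell by 0.78 with an SE of 0.14, and miR-18a* differed by -0.22 ± 0.11 and was not called. With normexp miR-17 was at 0.24 and miR-17* at 0.20, neither called. The probes of miR-17 (chr14:115442916-115442928, mm9) also match miR-106a at chrX:50095694-50095706, so their signal cannot be assigned to 1 of them.

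The X chromosome copy of the cluster is represented by miR-20b, since the probes of miR-19b and miR-92a map to both copies. miR-20b (chrX:50095305-50095323, mm9) had -0.74 and -0.84 in Gr1+ monocytes and 0.44 and 0.75 in MDP, a 2.61-fold fall (-1.38 ± 0.13, limma adjusted p = 6.38e-05). The cluster of miR-106b, miR-93 and miR-25 on chromosome 5 had 0 of 4 tested mature miRNAs called, against 37.7 percent of all tested miRNAs.

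In the miR-106b cluster, miR-93 had 0.05 and -0.01 in Gr1+ monocytes and 0.04 and 0.16 in MDP (-0.08 ± 0.16). miR-106b had -0.31 and -0.53 in Gr1+ monocytes and -0.28 and -0.32 in MDP (-0.11 ± 0.13). miR-25 had 0.20 and 0.17 in Gr1+ monocytes, against 0.42 and 0.57 in MDP, which did not overlap (-0.31 ± 0.13, limma adjusted p = 0.0915). Thus miR-93 and miR-106b, printed above with the seed of miR-17, miR-20a and miR-20b, were within their SE of 0 while those 3 differed by -1.16 to -1.38. The difference between the clusters was not tested.

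**Figure D3:**
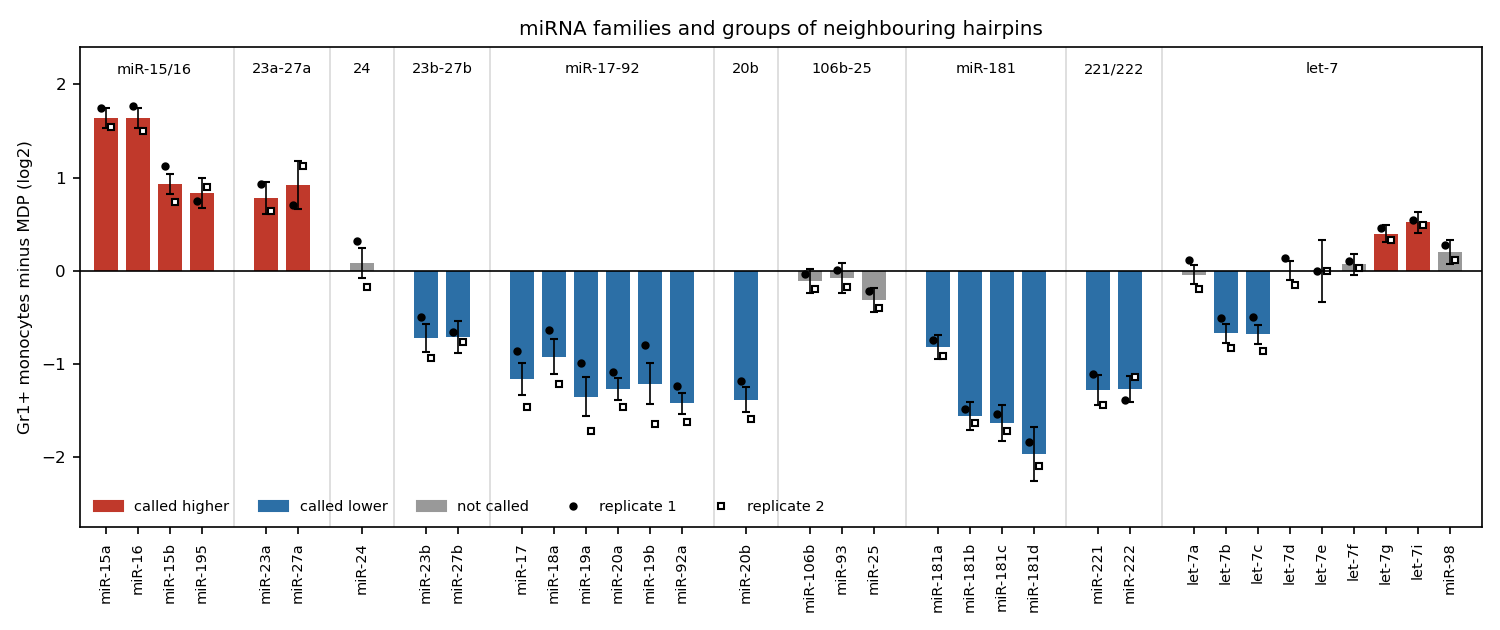
Bars give the log2 difference of Gr1+ monocytes minus MDP with its SE, circles the difference in replicate 1 and squares that in replicate 2; red bars were called higher, blue bars lower and grey bars not called. The miR-15 and miR-16 family and miR-23a and miR-27a stand above 0; miR-23b, miR-27b, the miR-17 to miR-92a cluster, miR-20b, the miR-181 family and miR-221 and miR-222 below it; and the miR-106b to miR-25 cluster near it. With normexp the differences of miR-17, miR-181c, miR-181d and miR-222 were above 0, at 0.24, 0.28, 0.01 and 0.11.

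The paralogous clusters of miR-23, miR-27 and miR-24 were called in opposite directions. miR-27a, encoded on chromosome 8 (chr8:86732631-86732646, mm9), had 0.12 and 0.06 in Gr1+ monocytes and -0.59 and -1.06 in MDP, which is a rise (0.92 ± 0.26, limma adjusted p = 0.0198). miR-27b, encoded on chromosome 13 (chr13:63402073-63402088, mm9) and 1 base apart from it, had -1.77 and -1.79 in Gr1+ monocytes and -1.11 and -1.04 in MDP, which is a fall (-0.71 ± 0.17, limma adjusted p = 0.00835). Neither pair of populations overlapped.

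Their neighbours behaved alike. miR-23a, beside miR-27a, had 1.08 and 0.89 in Gr1+ monocytes and 0.15 and 0.26 in MDP (0.78 ± 0.17, limma adjusted p = 0.00498). miR-23b, beside miR-27b, had -0.65 and -0.85 in Gr1+ monocytes and -0.15 and 0.09 in MDP (-0.72 ± 0.15, limma adjusted p = 0.00406). miR-24, which both clusters encode, had 0.31 and 0.10 in Gr1+ monocytes and -0.01 and 0.27 in MDP and was not called (0.08 ± 0.16). The cross-reaction of these near-identical miRNAs with each other's probes was not tested. The calls of miR-23a (0.59) and miR-27a (1.02) ended without Gr1+ monocyte replicate 1, that of miR-27a also without Gr1+ monocyte replicate 2 (0.81) or MDP replicate 2 (0.78), and that of miR-27b without Gr1+ monocyte replicate 2 (-0.66). With normexp none of the 5 was called.

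All 4 members of the miR-181 family, which tune signalling in lymphoid cells, fell, against 17.7 percent of all tested miRNAs. Their median was -1.59, and all 4 were also called without each of the 4 arrays and under both other scalings. With normexp none was called and the median was -0.05 against 0.73 over all miRNAs. miR-181a had -2.26 on both Gr1+ monocyte arrays and -1.52 and -1.36 in MDP (-0.82 ± 0.13, limma adjusted p = 0.000865). miR-181b had -2.97 and -2.91 in Gr1+ monocytes and -1.48 and -1.28 in MDP (-1.56 ± 0.15, limma adjusted p = 6.38e-05).

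miR-181c and miR-181d, neighbours on chromosome 8, fell by 1.63 and 1.96, with SE 0.19 and 0.29. miR-181c had -4.70 and -4.82 in Gr1+ monocytes and -3.16 and -3.10 in MDP. miR-181d had -4.38 and -4.45 in Gr1+ monocytes and -2.53 and -2.36 in MDP. None of the 4 overlapped between the populations. The strand miR-181a-1*, not above background in Gr1+ monocytes and detected on 1 MDP array, was lower as well (-0.79 ± 0.15, limma adjusted p = 0.00289), at 0.58 and not called with normexp.

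miR-221 and miR-222, neighbours on the X chromosome, share a seed and repress Kit, which encodes the CD117 used to sort MDP. miR-221 had -1.54 and -1.87 in Gr1+ monocytes, against -0.43 on both MDP arrays, a 2.42-fold fall (-1.28 ± 0.16, limma adjusted p = 0.000271). miR-222 had -3.77 and -3.33 in Gr1+ monocytes and -2.38 and -2.19 in MDP (-1.27 ± 0.14, limma adjusted p = 0.000162), but 0.11 and no call with normexp. Both lay lower on both Gr1+ monocyte arrays than on either MDP array.

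The let-7 family, which restrains growth genes and has 1 seed, did not move as a group. let-7i (0.52 ± 0.11) and let-7g (0.40 ± 0.09) rose, let-7b (-0.67 ± 0.10) and let-7c (-0.68 ± 0.10) fell, and 5 of the 9 were not called. The share called was 44.4 percent, near the 37.7 percent of all tested miRNAs. let-7b had -0.34 and -0.20 in Gr1+ monocytes and 0.17 and 0.63 in MDP, and let-7i 1.53 and 1.56 in Gr1+ monocytes and 0.98 and 1.07 in MDP. let-7a, 1 base apart from let-7c, had 1.94 and 1.82 in Gr1+ monocytes and 1.82 and 2.01 in MDP, which overlapped. After scaling over all miRNAs the calls of let-7i (0.49, limma adjusted p = 0.0708) and let-7g both ended, which left 0 members higher. The call of let-7g also ended after quantile normalization and without Gr1+ monocyte replicate 1 (0.36), and with normexp 0 of the 9 were called in either direction.

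The remaining lists held few calls. The 3 members of the miR-29 family (differences of 0.16 to 0.34) and the 3 tested members of the miR-322, miR-503 and miR-450 cluster (-0.19 to 0.27) gave 0 calls with limma. In the miR-30 family 1 of 5 was higher (20 percent), with differences of 0.19 to 0.51. Of all tested miRNAs 37.7 percent were called, and 20 percent were higher. After quantile normalization 4 of the 5 miR-30 and 1 of the 3 miR-29 members were called higher. miR-148b, detected on 1 MDP array, rose (0.93 ± 0.13), while miR-148a, 2 bases apart and of the same seed, differed by 0.00 ± 0.14. miR-150, a lymphocyte miRNA, had -4.07 and -5.54 in Gr1+ monocytes and was not above background in MDP (0.72 ± 0.56, not called, and 1.69 and called without Gr1+ monocyte replicate 2).

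Position and sequence were then read by a rule that did not use the signal. This covered the 152 of 175 tested miRNAs with a RefSeq match, which hold 59 of the 66 called ones. In RefSeq, 30 groups of hairpins within 10 kb of each other, or of 1 hairpin alone, held at least 2 tested miRNAs. Of these groups, 13 held at least 2 called ones. The single hairpins include those of miR-142 and miR-340, whose 2 arms were both called higher. In 5 of the 13 all calls were higher, in 8 all were lower, and in 0 did the directions differ. A mature miRNA encoded at several places counts in each group, so the groups are not independent. Of 18 seeds shared by tested miRNAs, 10 had at least 2 called members. All calls were higher for 3 of these seeds and lower for 5, and the let-7 and miR-27 seeds were called in both directions. miR-23b had no match and so entered no seed or group, although it was called in the opposite direction to miR-23a.

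Where several probes of a called miRNA were detected, they gave the same sign. The fitted difference is drawn from these same probes, so this is not an independent check of the calls. Of 104 tested miRNAs with more than 1 detected probe, 6 had probes of opposite sign, and 0 of those 6 were among the called ones, of which 56 had more than 1 such probe. Probes of 11 of the 66 called miRNAs map to several positions on mm9.

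Gr1+ monocytes were then compared with PDC in the same fit, which tests whether the difference from MDP is the same size in both mature marrow cells. The 2 comparisons share the Gr1+ monocyte arrays. Against PDC, 72 of 175 miRNAs were called (41.1 percent), 31 higher (17.7 percent) and 41 lower (23.4 percent) in Gr1+ monocytes. The split was 40 higher and 33 lower after quantile normalization, and 114 higher and 10 lower with normexp. At most 10 of the 41 lower calls were thus kept with normexp. Of the 35 miRNAs above MDP, 14 were also above PDC, 5 were below PDC and 16 were not called. Of the 31 below MDP, 16 were also below PDC, 6 were above PDC and 9 were not called.

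miR-223 separated the 2 mature cells most among the miRNAs above both: it had 0.52 and 0.09 in PDC and was 4.12 ± 0.20 higher in Gr1+ monocytes (limma adjusted p = 1.04e-06), so that PDC lay below MDP. miR-21 (1.95 ± 0.38), miR-27a (1.76 ± 0.26), miR-22 (1.02 ± 0.21) and miR-23a (0.96 ± 0.17) were also higher in Gr1+ monocytes than in PDC. miR-139-5p and miR-338-3p were not above background in PDC and were at least 2.21-fold and 1.69-fold higher in Gr1+ monocytes. Higher than in MDP but lower than in PDC were miR-362-3p (-3.31 ± 0.28), miR-532-5p (-2.50 ± 0.24), miR-107 (-0.93 ± 0.13), let-7g (-0.82 ± 0.09) and miR-26b (-0.46 ± 0.15).

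The miR-181 family was lower in Gr1+ monocytes than in PDC, miR-181a by -2.98 ± 0.13 (limma adjusted p = 8.83e-07), miR-181c by -2.78 ± 0.19, miR-181b by -1.79 ± 0.15 and miR-181d by -1.72 ± 0.29. Of the called miRNAs not above background in Gr1+ monocytes, the 4 detected on both MDP arrays were detected on both PDC arrays too, with miR-126-3p at -3.90 and -3.39, miR-130a at -4.31 and -3.97, miR-196b at -4.13 and -3.92 and miR-155 at -3.48 and -3.39 there. Against PDC these 4 were at least 1.92-fold to 3.14-fold lower in Gr1+ monocytes. The direction against PDC was the opposite for 6 of the 31 miRNAs that were lower than in MDP, miR-27b and 5 members of the miR-17 clusters. miR-18a (1.87 ± 0.19), miR-17 (1.14 ± 0.17), miR-20a (0.79 ± 0.12), miR-19a (0.66 ± 0.21), miR-20b (0.56 ± 0.13) and miR-27b (0.89 ± 0.17) were higher in Gr1+ monocytes than in PDC, so that Gr1+ monocytes lay between PDC and MDP. miR-19b (0.28 ± 0.22), miR-15a (0.08 ± 0.11), miR-92a (0.03 ± 0.11), miR-185 (0.01 ± 0.20) and miR-221 (0.01 ± 0.16) were not called against PDC.

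**Figure D4:**
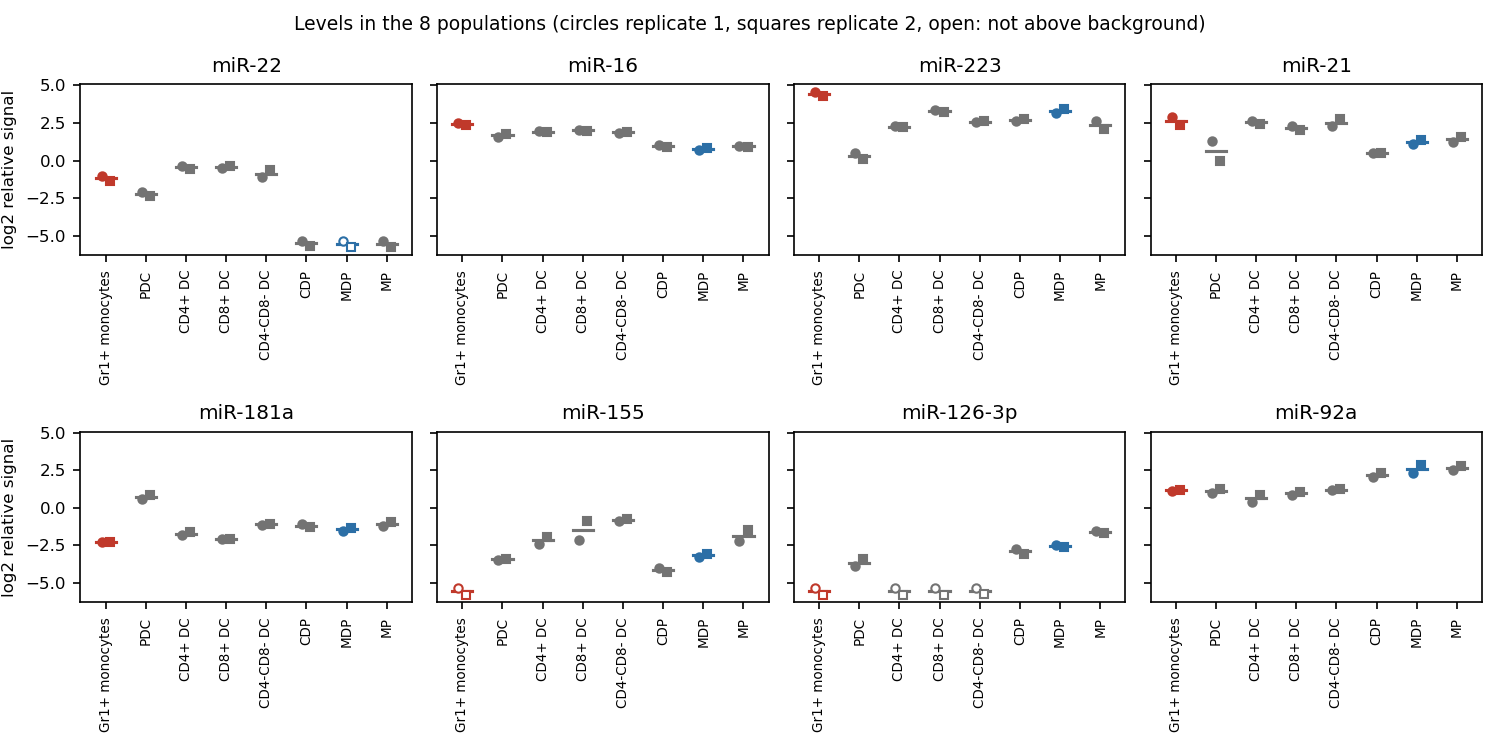
Log2 relative signals of 8 miRNAs in all 8 populations, with 2 arrays each (circles replicate 1, squares replicate 2) and lines at the means; red marks are Gr1+ monocytes, blue marks MDP and open marks populations not above background on either array. miR-22 was at or near the floor in CDP, MDP and MP and above it in the 5 others, miR-223 was highest in Gr1+ monocytes and lowest in PDC, and miR-155 and miR-126-3p were not above background in Gr1+ monocytes.

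Set among all populations, Gr1+ monocytes had the highest mean of miR-16 (2.43 ± 0.09, SD, n = 2), with the 4 dendritic cell populations at 1.67 to 2.00 and MP, MDP and CDP at 0.79 to 0.96. miR-27a was highest in Gr1+ monocytes too (0.09 ± 0.04), with CDP, MDP and MP at -0.83 to -0.96 and the dendritic cells at -1.35 to -2.21. Mean miR-22 in Gr1+ monocytes (-1.19 ± 0.28) lay above that in PDC (-2.21 ± 0.19) and below that in spleen CD4+ and CD8+ dendritic cells (-0.46 ± 0.15 and -0.43 ± 0.07). miR-155 was not above background in Gr1+ monocytes alone of the 8 populations, with means of -4.13 to -0.81 in the other 7. miR-126-3p was not above background in Gr1+ monocytes and in the 3 spleen dendritic cell populations. These orders are descriptions of 2 arrays per population.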

How the data were processed

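Total RNA of 4 samples had been labelled with Cy3 and hybridised to 1-colour Agilent miRNA arrays, per the labels' protocols. Per the file headers, Agilent Feature Extraction 10.7.3.1 had read each spot's intensity and subtracted background, while the submitters' processing notes name version 9.1. The deposited values are processed intensity signals on a linear scale, not scaled between arrays. Other deposited columns hold flags (well above background, outlier), per the file headers.

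Outlier spots (336 to 755 per array) were left out. Spots of a probe and then probes of a miRNA were averaged, and the result was scaled to the array's 75th percentile among 88 miRNAs with a detectable signal throughout (factors 520 and 480 for Gr1+ monocytes, 455 and 333 for MDP). A miRNA was detected on an array where, for any probe, a share of at least 0.5 of its spots was well above background. Values were raised to a floor per design, the median over arrays of the 5th percentile of detected values. Tested were the 175 miRNAs that some population showed on both its arrays, and 35 to 54 of them were at the floor on each of the 4 arrays.

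Log2 values of all 16 arrays, which share 1 estimate of the spread, went into a model of limma 3.58.1 (R 4.3.3) with population means and the array design as a block (8.52 residual degrees of freedom after moderation). The contrasts were Gr1+ monocytes minus MDP and minus PDC, each adjusted by Benjamini-Hochberg over 175 miRNAs. The replicate number marks the array design, so it pairs the samples, and deviations of Gr1+ monocytes and MDP from their means correlated across miRNAs (r = 0.622, range 0.293 to 0.916 over 28 pairs of populations). Each design was 1 slide, and the labels call the replicates biological. A population is called not above background where a miRNA was detected on 0 of its arrays. Its fold is then a minimum, taken against the dim signal itself or, if higher, the weakest detected probe of that array. Positions are those of the array files, in mm9. RefSeq (GRCm38.p6) gave sequences and neighbouring hairpins. The script was tested on simulated data. Alternatives were other scalings, normexp background correction (offset 50, no floor), other filters and probe summaries, and an offset of 0.05 in place of the floor. Further ones were no block, only the 4 arrays, and each array left out. Keeping outlier spots was added after seeing the data.

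The members and lists were chosen with earlier results of these data known. Named are the 15 largest rises and the 15 largest falls among the called miRNAs with the same sign in both replicates, 9 miRNAs of blood cells, members of the lists and called miRNAs that share a seed or lie within 10 kb of these. miR-652, miR-7a, both arms of miR-340 and of miR-140, miR-361, miR-423-5p, miR-210, miR-34a, miR-345-5p, miR-101b, miR-709, miR-374, miR-18a*, miR-3472, miR-1306 and miR-669n outside that rule were named after their values were seen.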

Additional observations from a re-analysis of the deposited data

Results flagged for a closer look

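Array design 2 carries 92 miRNAs that design 1 does not, and they had no place in the comparison because each population has 1 array there. Of these, 28 were detected in Gr1+ monocyte replicate 2 and 23 in MDP replicate 2, 23 of them in both. Among those detected in Gr1+ monocytes and not in MDP, miR-3472 differed by 1.72, miR-1306 by 1.26 and miR-669n by 1.16 on the log2 scale. MDP was at the floor for miR-3472 and miR-1306 and at -5.65, just above it, for miR-669n. There is no replicate behind these values and no test.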

How the results depend on the processing

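The count of 66 miRNAs called against MDP was 53 when scaled over all miRNAs, 65 after quantile normalization, 63 with the brightest probe of each miRNA, 68 with the files' own total gene signal, 64 with outlier spots kept, 78 with an offset in place of the floor, 50 of 96 when only miRNAs detected on all 4 arrays were tested, and 52 of 604 with no filter. Without the replicate block 50 miRNAs were called. Leaving out 1 of the 4 arrays gave 50 to 63 calls, and 47 of the 66 were kept without each of them. With normexp 11 were called. With only the 4 arrays in the fit, limma called 0, with 50 at an unadjusted p under 0.05, against 75 with all populations. Fewer arrays leave fewer degrees of freedom there, and the cause of the drop was not tested. Against PDC the count of 72 was 54 when scaled over all miRNAs, 73 after quantile normalization, 124 with normexp (114 higher and 10 lower), 55 without the replicate block and 56 to 74 with 1 array left out.

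Differences that turned with normexp, none of them called there, were miR-374 (0.43), miR-101b (0.68), miR-17* (0.20), miR-181a-1* (0.58), miR-345-5p (0.62), miR-34a (0.57), miR-17 (0.24), miR-222 (0.11), miR-125b-5p (0.05), miR-99a (0.33), miR-181c (0.28), miR-181d (0.01), miR-155 (0.19) and miR-196b (0.08). All 14 lay below the normexp median of 0.73, and the cause was not tested. miR-223 was at 0.00 after quantile normalization, which sets equal ranks to equal values, and miR-125b-5p at 1.03 with outlier spots kept. The uncalled miR-146a turned with the brightest probe (-0.04), with outlier spots kept (0.00), without Gr1+ monocyte replicate 1 (-0.30) and without MDP replicate 1 (-0.05), and the uncalled miR-150 without Gr1+ monocyte replicate 1 (-0.24), while without Gr1+ monocyte replicate 2 miR-150 was called (1.69). With 2 arrays per population, slide and array design are the same split as the replicate number, and dim miRNAs near the floor carry sizes that the floor limits.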
